A study of Homo sapiens with 8 samples.

Results

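This comparison sets the 2 arrays of CAL-27 cells treated with the compound labelled Go against the 3 arrays of CAL-27 cells treated with enzastaurin, which makes 5 of the 8 arrays of the series. The members were taken by sample title, and all measured genes were compared. CAL-27 is an established human line grown from a squamous carcinoma of the tongue. The cells had been grown in medium with 10% serum and penicillin and streptomycin, were kept without serum for 24 h and then received enzastaurin at 10 µM or Go, and RNA was taken 24 h later. The 3 control arrays carry the treatment group "control", and no vehicle is named for them. The labels give no dose for Go, so the compounds are compared as used, not at matched doses. They do not say whether the replicate arrays of a group came from separate cultures, and a p-value here measures only the spread between these arrays, which may be technical. Each array measured total RNA from the whole culture in 1 colour, so fewer cells of a type and less RNA per cell cannot be told apart.

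The series title calls both compounds inhibitors of "PCK", read here as PKC, protein kinase C. Kinases of this family are switched on by diacylglycerol and, in the classical isoforms, calcium, and in squamous epithelium they act on the ERK and AP-1 pathways, on differentiation and on protease secretion. Enzastaurin is a bisindolylmaleimide that binds the ATP pocket and is known mainly for inhibition of the beta isoform. Go is a code name whose full form the labels do not give, and no structure is stated for it here. The levels below are log2 array intensities after normalisation, and a difference is the Go mean minus the enzastaurin mean of these levels. A gene is called higher or lower with Go where limma's moderated test, with Benjamini-Hochberg adjustment over 12649 genes, gave an adjusted p under 0.05. Values in parentheses after a gene give this log2 difference, with its standard error (SE) and limma's adjusted p where they follow.

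Promoters are shown for 7 genes called between the compounds whose stretch before the start site holds the short motif usually tied to their group. The sequences are RefSeq's, build GRCh38.p14, 5′ to 3′ on the gene's strand, the 150 bases before the annotated start, with matches in capitals. The first 3 are lysosomal genes that were lower with Go, and the capitals mark TCACGTG, the core of the CLEAR element that factors of the TFEB family bind, which holds the general E-box CACGTG. NEU1 lies at chr6:31862822-31862971 (minus strand), CTSA at chr20:45891185-45891334 (plus strand) and MCOLN1 at chr19:7522474-7522623 (plus strand). ASNS, higher with Go, lies at chr7:97872409-97872558 (minus strand), and its capitals mark the amino acid response motif TGATGNAA. The metalloprotease genes MMP7 at chr11:102530748-102530897 and MMP10 at chr11:102780629-102780778 (both minus strand) were lower with Go, and their capitals mark the AP-1 motif TGANTCA. CYP1A1, higher with Go, lies at chr15:74725529-74725678 (minus strand), and its capitals mark GCGTG, the core of the xenobiotic response element.
NEU1: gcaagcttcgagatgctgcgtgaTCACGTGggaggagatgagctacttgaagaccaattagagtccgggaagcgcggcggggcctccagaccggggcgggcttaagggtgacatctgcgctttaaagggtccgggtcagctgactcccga
CTSA: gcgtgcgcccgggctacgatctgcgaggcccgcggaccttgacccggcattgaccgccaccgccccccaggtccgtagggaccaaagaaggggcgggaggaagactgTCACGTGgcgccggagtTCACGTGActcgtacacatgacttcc
MCOLN1: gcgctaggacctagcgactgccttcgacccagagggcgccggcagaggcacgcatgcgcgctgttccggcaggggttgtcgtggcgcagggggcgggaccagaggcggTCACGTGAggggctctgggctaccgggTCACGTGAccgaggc
ASNS: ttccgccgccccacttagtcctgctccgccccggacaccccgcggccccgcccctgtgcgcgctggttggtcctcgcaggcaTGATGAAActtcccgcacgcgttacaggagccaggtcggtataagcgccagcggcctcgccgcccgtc
MMP7: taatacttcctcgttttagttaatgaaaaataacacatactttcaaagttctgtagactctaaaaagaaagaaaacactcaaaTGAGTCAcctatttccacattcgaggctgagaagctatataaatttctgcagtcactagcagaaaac
MMP10: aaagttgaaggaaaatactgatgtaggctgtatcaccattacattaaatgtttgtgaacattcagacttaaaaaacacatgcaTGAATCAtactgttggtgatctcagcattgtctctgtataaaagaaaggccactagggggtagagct
CYP1A1: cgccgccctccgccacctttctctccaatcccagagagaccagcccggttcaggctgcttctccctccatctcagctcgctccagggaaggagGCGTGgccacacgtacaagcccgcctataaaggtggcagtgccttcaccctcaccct
The motif begins 127 bases before the start in NEU1, 68 in ASNS, 67 in MMP7, 67 in MMP10 and 57 in CYP1A1, and matches begin between 43 and 25 bases before it in CTSA and between 42 and 14 in MCOLN1. Motifs were searched on both strands, so that TCACGTGA, a palindrome, counts as 2 matches. A match describes these letters only and shows no binding.

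Over all RefSeq promoter windows, from 250 bases before to 50 after the start, 3.82% of 27305 held TCACGTG. Among genes tested here with a window, the share was 5.75% of 10182. It was 11.9% of the 337 called lower with Go (40 windows) and 3.39% of the 501 called higher (17 windows). Among the 204 called lower in both fits described below, 21 windows (10.3%) held it. For the AP-1 motif the shares were 4.83% of tested genes, 8.90% of those lower and 6.79% of those higher. For the amino acid response motif they were 1.83%, 1.48% and 2.40%, and for the xenobiotic core, short enough to be common, 49.3%, 43.6% and 47.1%. A sterol response motif, TCACNCCAC, was in 1.14% of tested genes' windows and in 0 of the 17 cholesterol synthesis genes with a window. The 7 printed genes were chosen because they hold their motif. Among called list members with a window, it was in 3 of 9 lysosomal genes and 2 of 4 metalloprotease and TIMP genes. Of the called amino acid response genes with a window, ASNS was the 1 of 7 that held it. These shares are descriptions without a test.

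The arrays differed in ways the groups do not explain. Mean spot positions on the scans fall into 2 sets: control 1, 2 and 3 with Go 1, and enzastaurin 1, 2 and 3 with Go 2. The sets may be slides, which the labels do not state. Go 1 against enzastaurin is therefore a comparison across sets, and only Go 2 shares a set with enzastaurin. Enzastaurin against the controls is across sets too, as is Go 2 against the controls. In 64.5% of all tested genes the control mean was nearer to the Go mean than to the enzastaurin mean. A fit with the set as a block rests on Go 2 alone against the 3 enzastaurin arrays, and assumes that this single array varies as the others do. Go 1 also had a dim corner of 1.69 by 4.76 mm, 3.82% of its spots, where its median log2 difference from the other 7 arrays was -0.44, against 0.00 over the rest of the array. The corner was outlined after a map of spot values had been seen. In 41 genes Go 1 lay at least 2-fold below all 7 other arrays, and all 41 had their probe in that corner. For Go 2 there were 0 such genes. Values without the corner are given beside the results they touch.

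Over all tested genes the root-mean-square log2 distance between Go 1 and Go 2 was 0.348, against 0.119 to 0.162 between pairs of enzastaurin arrays and 0.200 to 0.349 between pairs of controls. Go 2 lay 0.290 to 0.310 from the enzastaurin arrays, nearer than to Go 1. Go 1 lay 0.374 to 0.392 from them, and 0.529, 0.442 and 0.299 from control 1, 2 and 3. Each array had 45220 spots, and 52.1 to 57.3% of probes were above background.

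The cells carried their line's markers under both compounds. Of 12 squamous keratinocyte markers, 11 were named on the array and all 11 were above background on all 5 arrays, among them KRT5, KRT14, TP63 and DSG3. Their summed linear level was 49860 on Go 1 and 56730 on Go 2, against 58490 to 62910 with enzastaurin and 53390 to 67360 in the controls. PTPRC, CD3D, MS4A1 and CD52 of the leukocyte list were not above background on any of the 5 arrays, nor were PDGFRA, PDGFRB, FAP and POSTN of the fibroblast list, PECAM1, KDR and TEK of the endothelial list, or SOX10 and TYRP1 of the melanocyte list. Other members of these lists were above background on all 5 arrays. They were CD14, CD3E, CD68, LAPTM5 and TYROBP (leukocyte), COL1A1, LUM and THY1 (fibroblast), EGFL7 and VWF (endothelial), and PMEL and DCT (melanocyte). The keratinocyte sum was lower on both Go arrays than on any enzastaurin array, and the member called was SFN. The fibroblast sum was 1859 and 2095 with Go against 1808 to 2054 with enzastaurin, and the leukocyte sum was 1386 and 1281 against 1290 to 1329. The endothelial sum was 833 and 790 against 733 to 742, and the melanocyte sum, carried by PMEL and DCT, 811 and 641 against 553 to 596. The part of these levels in the results below was not tested.

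Between the compounds, 1071 of 12649 genes were called, 8.47% of those tested: 646 were higher with Go (5.11%) and 425 lower (3.36%). The differences were mostly small. The median size among called genes was 0.50 on the log2 scale, and 53 genes (0.419%) were called with at least a 2-fold difference, 34 higher (0.269%) and 19 lower (0.15%). All 1071 had Go and enzastaurin arrays that did not overlap, as did 48.1% of all genes. With the position set as a block 1006 genes were called (7.95%), 518 higher (4.1%) and 488 lower (3.86%). In both fits 610 genes (4.82%) were called in the same direction, 346 higher (2.74%) and 264 lower (2.09%). An unadjusted p under 0.05 was found for 3241 genes (25.6%). Of the 53 with a 2-fold difference, 49 were called in both.

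The split between higher and lower depends on the scaling. With arrays scaled to their medians 812 genes were called and 32.0% of them were higher with Go, against 60.3% after quantile normalisation, while the median difference over all genes was -0.05 in place of 0.03. The counts also depend on single arrays. Without enzastaurin 1, 2 or 3 in turn 266, 250 and 386 genes were called. Without control 2 the count was 517. Without Go 2 it was 1684 in all and 254 at 2-fold or more. Among the 20 alternatives, the position set as a block and leaving out Go 1 amount to the same fit. Of 194 called genes named in this text or its lists, 81 stayed called under all 20 alternatives. Among the remaining 113 genes, 110 lost the call when enzastaurin 1 or enzastaurin 2 was left out. With the spots of the dim corner left out 1142 genes were called, 1057 of them among the 1071.

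**Figure D1:**
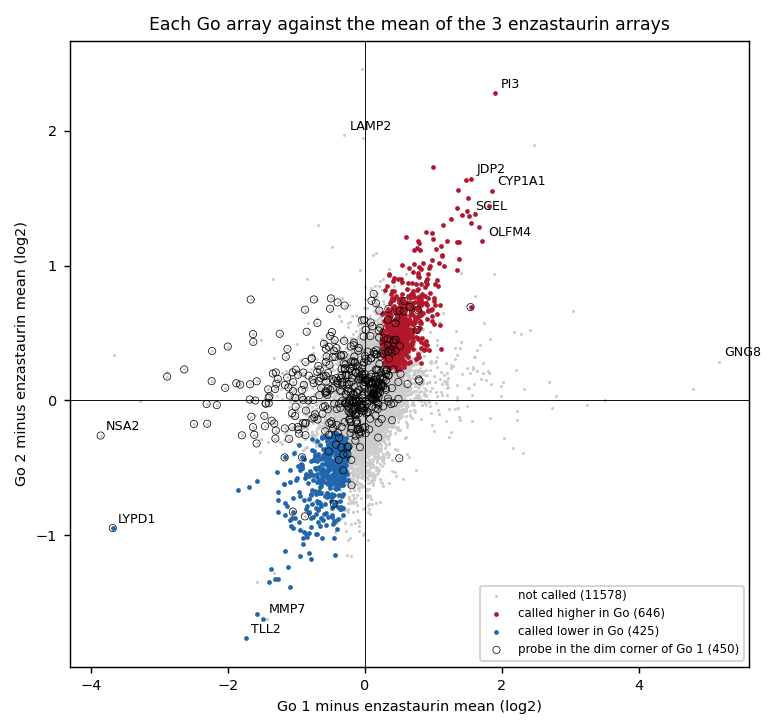
Each gene's level on Go 1 (x axis) and Go 2 (y axis) minus the mean of the 3 enzastaurin arrays, both in log2 units. Red points are the 646 genes called higher with Go, blue points the 425 called lower, grey points the others, and black rings mark genes with a probe in the dim corner of Go 1. The called genes lie along the diagonal, and the genes far out on the x axis alone are those where the Go arrays disagree.

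Among genes called in both fits and with groups that do not overlap, the 15 largest rises with Go included secreted epithelial proteins and inhibitors. PI3 read 11.50 and 11.88 on Go 1 and Go 2, 9.55, 9.82 and 9.43 on the enzastaurin arrays and 11.81, 11.68 and 11.17 on the controls. PI3 encodes elafin, an inhibitor of neutrophil elastase, and both Go arrays lay above all 3 enzastaurin arrays and inside or just above the controls. The difference was 2.09, SE 0.20, adjusted p 0.00156, a 4.25-fold change. With enzastaurin KLK10 was at 9.39, 9.41 and 9.42, with Go at 10.77 and 10.97 and in the controls at 11.10, 10.78 and 10.48. KLK10 is a secreted kallikrein-family protease, and its groups did not overlap (1.46, SE 0.16, adjusted p 0.00199). OLFM4, a secreted glycoprotein of epithelial crypts and glands, was at 10.69, 10.58 and 10.78 with enzastaurin and 12.40 and 11.86 with Go (1.45, SE 0.15, adjusted p 0.0016). PIP, the prolactin-induced protein of secretory glands, differed by 1.49 (SE 0.19, adjusted p 0.00358), and SCEL, sciellin of the cornified envelope, by 1.45 (SE 0.12, adjusted p 0.000899). In OLFM4 and PIP both Go arrays were above every control array as well, whereas in SCEL they were below every control array and above every enzastaurin array.

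Levels of CYP1A1 were 9.74 and 9.45 with Go, 8.04, 7.73 and 7.90 with enzastaurin and 7.88, 7.85 and 7.86 without either compound. CYP1A1 encodes the cytochrome P450 that is the usual readout of the aryl hydrocarbon receptor. It was not above background on any enzastaurin array, so the size of its change is less certain. The fitted difference was 1.70, SE 0.12, limma's adjusted p 0.000462, which is 3.26-fold higher with Go. For such genes below, "at least" before a fold marks a bound that leaves the error aside. In it, levels under an array's lowest level above background were raised to that level. The enzastaurin levels of CYP1A1 were above that level, so no separate bound is given for it. Both Go arrays lay above all 3 controls, which were at 7.88, 7.85 and 7.86. CYP1B1, another target of the receptor, was at 10.96, 10.92 and 11.15 with enzastaurin, 11.39 and 11.64 with Go and 9.59, 9.86 and 10.07 in the controls, and its difference of 0.50 did not pass (adjusted p 0.0702). CYP1A1 was thus the 1 member called of 10 tested receptor genes. Without Go 1 or Go 2 it was still called.

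Regulators of transcription were among the largest rises. On the enzastaurin arrays JDP2 was measured at 9.70, 9.59 and 9.61, on the Go arrays at 11.18 and 11.28 and on the control arrays at 10.95, 10.70 and 10.59. JDP2, a dimerisation partner and repressor of AP-1, was above all controls on both Go arrays (1.60, SE 0.11, adjusted p 0.000494). TLX2, a homeobox factor, was at 8.13, 7.83 and 7.75 with enzastaurin, 9.45 and 9.23 with Go and 11.44, 11.92 and 10.99 in the controls, so that Go lay between the other groups (1.43, SE 0.24, adjusted p 0.0109). UBALD2, of unclear function, was at 10.95, 10.61 and 10.81 against 12.27 and 12.20 (1.45, SE 0.12, adjusted p 0.000928), and FRAT2, which binds GSK3 and acts in Wnt signalling, at 7.70, 7.56 and 7.64 against 9.05 and 9.01 (1.39, SE 0.09, adjusted p 0.000401). The rest of the 15 largest were PDZK1, a scaffold of membrane transporters, with a difference of 1.56, the dehydrogenases DHRS2 (1.51) and DHRS3 (1.36), ADA2, a secreted adenosine deaminase (1.47), and the keratin KRT23 (1.38). In PDZK1, DHRS2 and JDP2 both Go arrays exceeded every control array, in ADA2, FRAT2 and KRT23 they lay below all controls, and in UBALD2 they lay within the controls' range. TLX2 lost its call without enzastaurin 2, and DHRS3 without enzastaurin 1 or 3. The other 13 of the 15 kept theirs under every alternative.

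The 15 largest falls by the same rule were led by proteases and surface proteins. The level of TLL2 was 9.04, 9.10 and 9.28 on the enzastaurin arrays, 7.40 and 7.37 on the Go arrays and 8.18, 8.16 and 8.18 on the control arrays. TLL2 is a tolloid-like metalloprotease, and Go lay below both other groups (-1.75, SE 0.09, adjusted p 0.00018). ZBED2 read 10.35 and 10.34 on Go 1 and Go 2, 11.98, 11.92 and 11.88 on the enzastaurin arrays and 9.84, 10.003 and 10.56 on the controls. ZBED2 is a zinc-finger factor of keratinocytes, and both Go arrays lay within the range of the controls (-1.58, SE 0.18, adjusted p 0.00239). With enzastaurin GPNMB was at 9.996, 10.07 and 10.29, with Go at 8.80 and 8.80 and in the controls at 8.90, 8.86 and 8.99. GPNMB, a lysosomal and surface glycoprotein, was just below the level of the controls with Go (-1.32, SE 0.10, adjusted p 0.000661). Levels of CSF1R were 7.43 and 7.56 with Go, 8.80, 8.79 and 8.83 with enzastaurin and 7.68, 7.52 and 7.78 without either compound. CSF1R, the receptor of macrophage colony-stimulating factor, had its Go arrays at or just below the level of the controls (-1.31, SE 0.09, adjusted p 0.000539). LYRM1 (-1.24), LPCAT1, which remodels lysophosphatidylcholine (-1.18), TENT5A (-1.14), MAN1A1, a Golgi mannosidase (-1.05), and SOCS3, the feedback inhibitor of JAK and STAT signalling (-1.05), were lower on both Go arrays than on all enzastaurin arrays. DEFB103B encodes an antimicrobial beta-defensin, and its probe may also read the gene's close copy. It was not above background on either Go array, and by its fitted difference it was 2.46-fold lower. P4HA2, a collagen prolyl hydroxylase, was at 10.23 and 11.29 with Go against 12.07, 11.76 and 11.97 with enzastaurin. Its difference was -1.17, and on Go 2 alone -0.65, and its call was lost without control 2 or any 1 enzastaurin array.

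LYPD1, the largest fall by value, had its probe in the dim corner. This surface protein of the Ly6 family was at 10.90, 10.81 and 10.99 with enzastaurin and at 7.22 and 9.95 with Go, so that Go 1 lay far below every other array. Its difference was -2.31, SE 0.60, adjusted p 0.0498. Without the corner spots it was -0.95 (adjusted p 0.00403), the same size as on Go 2 alone (-0.95). Other genes with a probe there were not called but looked changed on Go 1: NSA2, a ribosome assembly factor, was at 8.53 and 12.12 with Go against 12.32, 12.29 and 12.54 with enzastaurin, PTGES3, the p23 chaperone, at 11.01 and 14.07 with Go against 13.81, 13.94 and 13.93, and TSG101, of the ESCRT machinery, at 9.29 and 11.42 with Go against 11.37, 11.30 and 11.32. In PTGES3 and TSG101 Go 2 lay just above the enzastaurin arrays and in NSA2 just below them. Of the 450 tested genes with a probe in the corner 33 were called, and 14 of those 33 were not called without it.

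**Figure D2:**
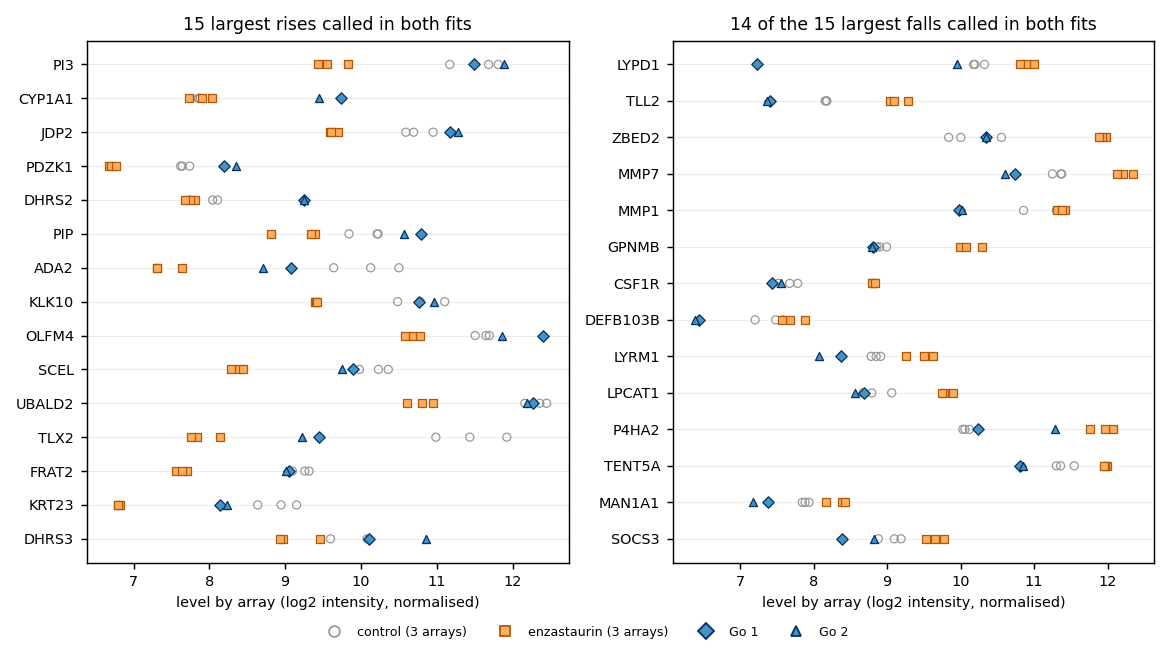
Levels (log2 intensity, x axis) of the 15 largest rises and 14 of the 15 largest falls that were called in both fits, on each control, enzastaurin and Go array. In all of them the Go symbols lie on one side of the 3 enzastaurin squares, and in LYPD1 and P4HA2 the 2 Go symbols lie more than 2-fold apart.

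Several genes of cholesterol synthesis were lower with Go. In the endoplasmic reticulum this pathway is driven by SREBP2, whose release is held back by the INSIG proteins when sterol is plentiful. Of 22 tested synthesis enzymes 9 were lower and 0 higher, and the list's median was -0.46 against 0.03 over all genes. Without enzastaurin 1, 2 or 3 the count was 3, 3 and 5, and with Go 2 alone it was 9. On the enzastaurin arrays SQLE was measured at 12.35, 12.42 and 12.56, on the Go arrays at 11.59 and 11.42 and on the control arrays at 11.50, 11.21 and 11.48. SQLE, squalene epoxidase, an early oxygen-dependent step, was within or just above the controls' range on both Go arrays (-0.93, SE 0.12, adjusted p 0.0031). The level of HMGCS1 was 11.41, 11.53 and 11.54 on the enzastaurin arrays, 10.77 and 10.80 on the Go arrays and 10.69, 10.69 and 10.91 on the control arrays. HMGCS1, a synthase early in the pathway, was within the controls' range with Go (-0.71, SE 0.09, adjusted p 0.00406). MSMO1, a sterol demethylase component, was not above background on either Go array, at 7.92 and 7.53 against 8.55, 8.53 and 8.57 with enzastaurin. By its fitted difference it was 1.77-fold lower. SC5D (-0.63), MVD (-0.55), HSD17B7 (-0.45) and GGPS1 (-0.32) were smaller called members. SC5D, MVD and HSD17B7 were among the members that lost the call without enzastaurin 1 or 2, where 3 of the 22 stayed called. MVD and GGPS1 lost it with Go 2 alone. Members that did not pass were IDI1, at -0.55 (adjusted p 0.057), DHCR7, at -0.17 (95% interval -0.44 to 0.11), and FDFT1, at -0.16 (95% interval -0.37 to 0.04).

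Some genes of sterol sensing were also lower. INSIG1 read 9.63 and 9.60 on Go 1 and Go 2, 10.32, 10.53 and 10.46 on the enzastaurin arrays and 10.01, 10.06 and 10.04 on the controls. INSIG1 retains the SREBP escort in the endoplasmic reticulum, and Go lay below both other groups (-0.82, SE 0.08, adjusted p 0.0016). INSIG2, its relative, differed by -0.67 and STARD4, a cytosolic sterol carrier, by -0.71. These 3 of 13 tested genes of sterol sensing and uptake were called, in both fits. SREBF2, the gene of SREBP2, differed by -0.04 (adjusted p 0.871) and SREBF1 by 0.42 (adjusted p 0.0884). Of 9 tested genes of sterol efflux, NR1H3, which encodes the sterol receptor LXR alpha, was higher by 0.52 and ABCG1, an efflux pump that was not above background with enzastaurin, was at least 1.53-fold higher. Both calls were lost without enzastaurin 2, and that of ABCG1 also with Go 2 alone. Of 17 fatty acid genes, ELOVL6 (-0.63) and ACLY (-0.37) were lower, the count being 0 without enzastaurin 1 or 2 and 6 with Go 2 alone.

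Several lysosomal genes were lower with Go. Of 28 tested hydrolases and membrane proteins 9 were lower and 1 higher, with a median of -0.16. Without enzastaurin 1, 2 or 3 the lower count was 2, 2 and 4, and without control 2 it was 5. With enzastaurin NEU1 was at 12.29, 12.19 and 12.30, with Go at 11.45 and 11.27 and in the controls at 11.60, 11.51 and 11.64. NEU1, the lysosomal sialidase whose promoter is printed above with its CLEAR motif, had Go arrays below both other groups (-0.90, SE 0.09, adjusted p 0.00156), and it kept its call under every alternative, as did GPNMB. CTSA, the protective protein that stabilises NEU1, was at 12.29 and 12.22 against 12.69, 12.61 and 12.61 (-0.38, SE 0.08, adjusted p 0.0289). MCOLN1, the calcium channel of the lysosome membrane, was at 7.79 and 7.52 against 8.06, 7.97 and 8.17 (-0.41, SE 0.10, adjusted p 0.0427). These 3 were the called members among 6 of 19 list genes with a window that held TCACGTG. TPP1 (-0.52), SMPD1, acid sphingomyelinase (-0.50), CTSL (-0.40) and CD63 (-0.38) were other members lower. CTSC, the dipeptidase that activates serine proteases, was higher by 0.62 (adjusted p 0.0382). The calls of these 7 genes, from CTSA to CTSC, were lost without enzastaurin 1 or 2, and those of CTSL and CD63 also with Go 2 alone.

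Of tested subunits of the vacuolar ATPase, the proton pump of the lysosome, 13.3% were called lower, against 3.36% over all genes. All 15 tested subunits had a difference below 0, with a median of -0.23, and 2 passed: ATP6V1E1, at 10.09 and 10.42 against 10.89, 10.78 and 10.79 (-0.57, SE 0.10, adjusted p 0.0152), and ATP6V0A1, at 11.33 and 11.31 against 11.93, 11.88 and 11.80 (-0.55, SE 0.09, adjusted p 0.0102). With Go 2 alone 5 passed, and without enzastaurin 1 or 2 none did. Among autophagy genes more members were called higher than lower, but the list's median was 0.005, against 0.03 over all genes. It was -0.09 on Go 1 alone and 0.10 on Go 2 alone. Levels of ULK1 were 10.65 and 10.48 with Go, 9.20, 9.26 and 9.44 with enzastaurin and 10.08, 10.27 and 10.10 without either compound. ULK1, the kinase that starts autophagy, was above all controls and all enzastaurin arrays on both Go arrays (1.26, SE 0.11, adjusted p 0.000928), with both of its probes called. GABARAPL1 (0.58), a ubiquitin-like protein of the autophagosome, BECN1 (0.44) and MITF (0.29) were also higher and RRAGC (-0.43) lower, 4 and 1 of 17 tested, and MITF and RRAGC lost their calls with Go 2 alone. With arrays scaled to their medians 1 was higher and 2 were lower, and without enzastaurin 1 or 2 ULK1 was the 1 member higher. TFEB itself differed by -0.13 (adjusted p 0.394), and SQSTM1, the cargo receptor p62, by -0.25 (adjusted p 0.167).

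Several amino acid response genes were higher with Go. ATF4 is the transcription factor made when amino acids are short or the endoplasmic reticulum is stressed, and its targets include amino acid synthesis and import. Of 22 tested targets, the gene of ATF4 included, 7 were higher and 1 lower, with a median of 0.40. Without Go 2 the count was 11 higher, and with Go 2 alone it was 7 and 1. On the enzastaurin arrays ASNS was measured at 11.56, 11.52 and 11.48, on the Go arrays at 12.30 and 12.21 and on the control arrays at 11.56, 11.51 and 11.67. ASNS, asparagine synthetase, whose promoter motif is printed above, had Go arrays above both other groups (0.73, SE 0.08, adjusted p 0.00242). The level of NUPR1 was 8.96, 8.48 and 8.84 on the enzastaurin arrays, 9.89 and 9.83 on the Go arrays and 9.08, 8.78 and 8.59 on the control arrays. NUPR1, a small stress-induced chromatin protein, showed the same order (1.10, SE 0.17, adjusted p 0.00778). CBS read 11.44 and 11.08 on Go 1 and Go 2, 10.22, 10.21 and 9.89 on the enzastaurin arrays and 11.45, 11.18 and 11.01 on the controls. CBS, which makes cystathionine from homocysteine, was in the range of the controls with Go (1.15, SE 0.16, adjusted p 0.00571), and CTH, the next enzyme of that route, was above both other groups at 9.60 and 9.94 (0.71, SE 0.12, adjusted p 0.0102). ATF4 itself was at 14.12, 13.98 and 13.77 with enzastaurin and 15.005 and 14.60 with Go (0.85, SE 0.14, adjusted p 0.0107). STC2 (0.70) and CEBPG (0.53), the partner of ATF4, were the other members higher. VLDLR, a lipoprotein receptor, was lower (-0.43). CHAC1, at 0.92 (adjusted p 0.0705), and ATF3, at 0.35 (adjusted p 0.0674), did not pass. CTH lost its call without enzastaurin 2, and STC2 without enzastaurin 2 or 3.

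Amino acid transporters had 4 of 15 tested members higher and 0 lower. With enzastaurin SLC7A5 was at 12.91, 12.81 and 12.93, with Go at 13.74 and 13.61 and in the controls at 13.11, 13.17 and 13.39. SLC7A5, which carries large neutral amino acids, was above all controls on both Go arrays (0.79, SE 0.10, adjusted p 0.00401). Levels of SLC3A2 were 13.87 and 13.80 with Go, 13.14, 12.98 and 13.01 with enzastaurin and 13.76, 13.76 and 13.72 without either compound. SLC3A2, the heavy chain it pairs with, was also above both other groups (0.79, SE 0.08, adjusted p 0.0016). SLC6A14, a broad sodium-driven importer, was at 6.52, 6.45 and 6.47 with enzastaurin, 7.68 and 7.67 with Go and 7.89, 7.67 and 7.46 in the controls (1.19, SE 0.12, adjusted p 0.00156). SLC38A2, higher by 0.56, lost its call with Go 2 alone and without control 2 or any 1 enzastaurin array. The other 3 kept theirs under every alternative. Of 20 tested aminoacyl-tRNA synthetases, WARS1 alone was called (0.44, adjusted p 0.034), a call lost with Go 2 alone, and the list's median was 0.03, that of all genes.

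**Figure D3:**
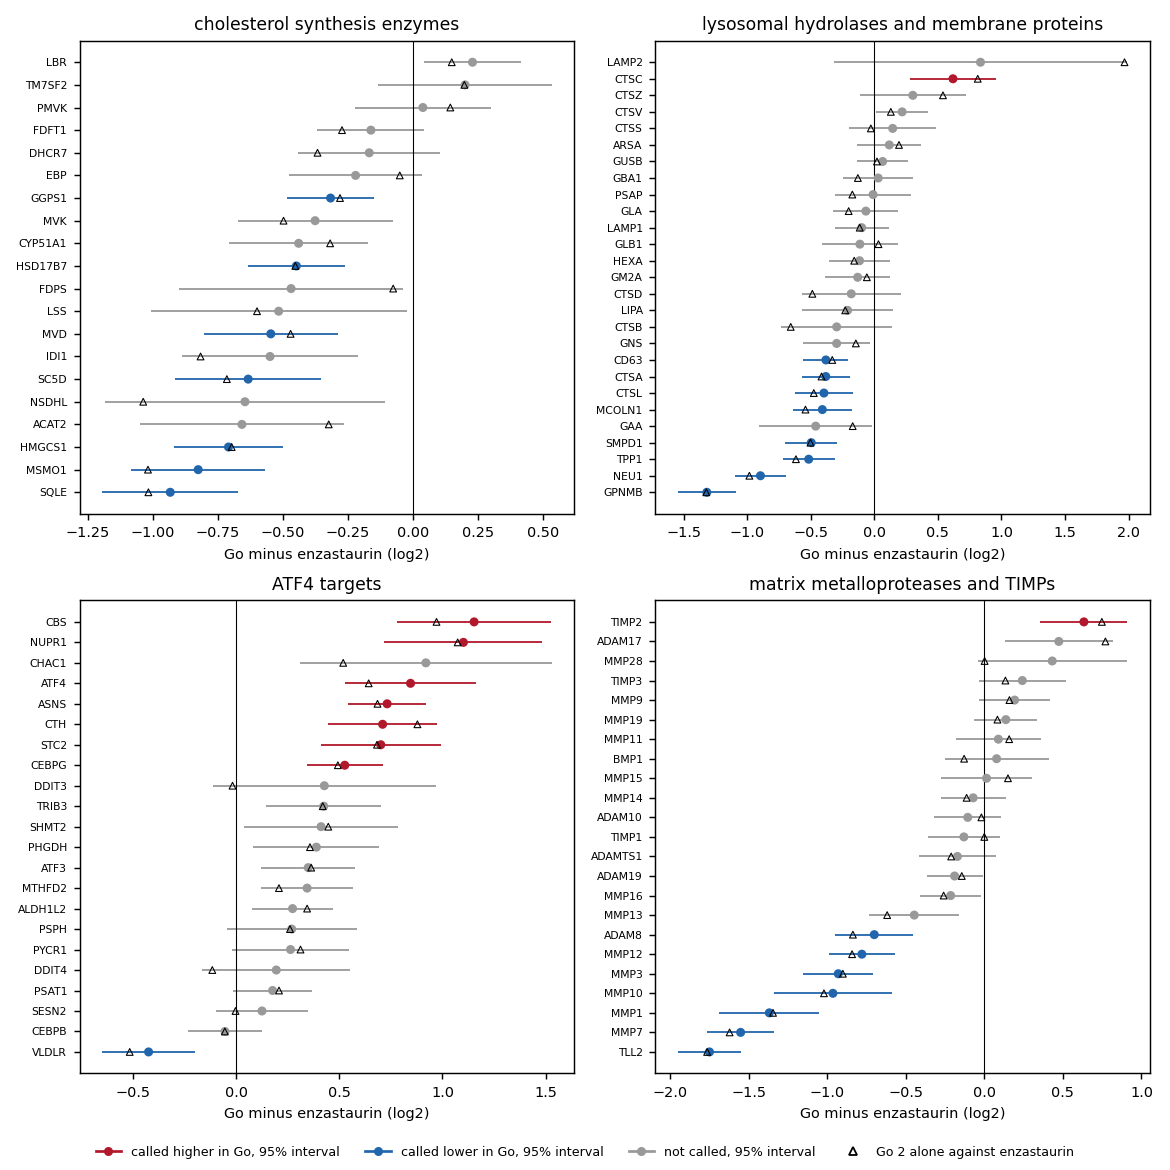
Go minus enzastaurin difference (log2, x axis) of tested members of 4 lists, with its 95% interval from the 8-array fit; triangles give the difference on Go 2 alone. Cholesterol enzymes and lysosomal genes lie mostly left of 0, with medians over the whole lists of -0.46 and -0.16, ATF4 targets mostly right of it, with a median of 0.40, and the metalloproteases spread from -1.75 for TLL2 to 0.63 for TIMP2.

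Several secreted proteases were lower with Go, and some protease inhibitors were higher. Of 23 tested metalloprotease and TIMP genes 7 were lower and 1 higher, though the list's median was -0.13. Leaving out any 1 array left 6 to 8 lower. On the enzastaurin arrays MMP7 was measured at 12.34, 12.21 and 12.13, on the Go arrays at 10.75 and 10.61 and on the control arrays at 11.36, 11.38 and 11.25. MMP7, matrilysin, whose promoter motif is printed above, had Go arrays below both other groups (-1.55, SE 0.09, adjusted p 0.000277). The level of MMP1 was 11.42, 11.31 and 11.38 on the enzastaurin arrays, 9.98 and 10.02 on the Go arrays and 11.34, 11.30 and 10.86 on the control arrays. MMP1, the interstitial collagenase, overlapped between enzastaurin and the controls and was more than 2-fold lower with Go (-1.37, SE 0.14, adjusted p 0.0016). MMP10 read 8.83 and 8.71 on Go 1 and Go 2, 9.81, 9.45 and 9.95 on the enzastaurin arrays and 8.94, 9.33 and 9.32 on the controls. MMP10, stromelysin 2, also had its Go arrays lowest (-0.96, SE 0.17, adjusted p 0.0124), and lost its call without enzastaurin 1. MMP3, stromelysin 1, was at 6.75 and 6.81 against 7.85, 7.56 and 7.72 (-0.93, SE 0.10, adjusted p 0.00171), and MMP12, the macrophage elastase, at 6.71 and 6.59 against 7.50, 7.30 and 7.50 (-0.78, SE 0.09, adjusted p 0.00289). ADAM8, a surface sheddase, differed by -0.70. TIMP2, the tissue inhibitor, was higher by 0.63 (adjusted p 0.0182), a call lost without any 1 enzastaurin array. MMP1, MMP3, MMP10 and MMP12 are neighbouring genes of similar sequence, and whether their probes share signal was not tested.

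In the plasminogen system 3 of 10 tested genes were lower and 0 higher. With enzastaurin PLAT was at 13.03, 12.91 and 13.07, with Go at 12.39 and 12.11 and in the controls at 12.36, 12.39 and 12.52. PLAT, tissue plasminogen activator, was at or below the controls' level with Go (-0.75, SE 0.11, adjusted p 0.00552). Levels of SERPINE2 were 7.82 and 7.73 with Go, 8.67, 8.72 and 8.74 with enzastaurin and 8.20, 8.14 and 8.33 without either compound. SERPINE2, protease nexin 1, had Go arrays below both other groups (-0.94, SE 0.08, adjusted p 0.00118). SERPINB5, maspin, differed by -0.43 and lost its call without control 2, any 1 enzastaurin array or Go 2, and with Go 2 alone. In the separate list of elafin, SLPI and kallikreins 5 of 20 tested genes were higher and 0 lower, with a median of 0.26. PI3 and KLK10, given above, led. SLPI, the secretory leukocyte protease inhibitor, was at 14.61, 14.40 and 14.66 with enzastaurin and 15.26 and 15.36 with Go (0.75, SE 0.10, adjusted p 0.00367), PRSS8, prostasin, differed by 0.48, a call lost with Go 2 alone, and CST6, a cystatin, by 0.44. Without any 1 enzastaurin array 3 members were called, and without Go 2 the count was 7 higher and 1 lower.

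Squamous and secretory genes had called members in both directions. Over all genes 5.11% were called higher and 3.36% lower. Of 16 tested keratins 4 were higher and 2 lower. KRT23 and KRT4 (1.11) of the suprabasal layers, KRT80 (0.68) and KRT8 (0.45) were higher, and KRT75 (-1.01) and KRT6C (-0.75), a stress keratin with near-identical copies, were lower. On the enzastaurin arrays KRT6C was measured at 13.16, 13.10 and 13.15, on the Go arrays at 12.56 and 12.21 and on the control arrays at 13.24, 13.13 and 13.06. Both Go arrays were below the other 6 arrays, which overlapped one another. Of 19 tested cornified envelope genes 5.26% were called in each direction, near the shares over all genes. SCEL was higher and SPRR1A lower, at 11.05 and 11.46 against 12.01, 12.47 and 12.20 (-0.97, SE 0.16, adjusted p 0.0112), and IVL, involucrin, differed by 0.13 (95% interval -0.17 to 0.43). S100P was higher (0.98) and S100A3 lower (-0.67) of 10 tested S100 genes, 10% in each direction. Of 21 tested secretory epithelial genes OLFM4, PIP and S100P were higher and CLCA2 lower. CLCA2 was not above background on either Go array, and by its fitted difference it was 1.71-fold lower. SFN, 14-3-3 sigma, was at 10.21 and 10.11 with Go against 10.98, 11.02 and 10.92 with enzastaurin (-0.82, SE 0.08, adjusted p 0.00156). KRT75 and KRT8 lost their calls with Go 2 alone and without any 1 enzastaurin array. SPRR1A, KRT4, KRT80, KRT6C, S100P, S100A3 and SFN kept theirs.

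Aldo-keto reductases, cytosolic carbonyl reductases, had 3 of 7 tested members lower and 0 higher. AKR1C1 was at 9.19 and 9.47 with Go against 10.07, 10.35 and 10.03 with enzastaurin and 9.13, 9.11 and 9.17 in the controls (-0.82, SE 0.12, adjusted p 0.00676). AKR1C3 (-0.62) and AKR1B10 (-0.60) were smaller, and both lost the call without any 1 enzastaurin array, AKR1C3 also with Go 2 alone. The AKR1C genes are close copies, and a probe may read more than 1. NRF2 targets, which share these reductases' usual regulator, had HMOX1 (-0.30) and OSGIN1 (-0.45) lower of 22 tested, and both calls were lost without enzastaurin 1 or 2, and that of HMOX1 also with Go 2 alone.

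Matrix and hypoxia genes had lower members. Of 17 tested mesenchymal and matrix genes 5 were lower and 1 higher. The level of TNC was 12.64, 12.62 and 12.43 on the enzastaurin arrays, 11.72 and 11.78 on the Go arrays and 11.58, 11.68 and 11.96 on the control arrays. TNC, tenascin C, was in the range of the controls with Go (-0.82, SE 0.12, adjusted p 0.00692). FN1, fibronectin, was at 8.92 and 8.67 against 9.62, 9.48 and 9.43 (-0.72, SE 0.16, adjusted p 0.0282), COL5A1 differed by -0.66, SNAI2 by -0.51, and VIM, vimentin, above background only on the enzastaurin arrays, was at least 1.31-fold lower. THBS1, thrombospondin 1, was higher, at 11.97 and 11.81 against 11.14, 10.83 and 11.08 (0.87, SE 0.11, adjusted p 0.0031). Without enzastaurin 1, 2 or 3 in turn 2 members were called lower, and with Go 2 alone 3 were, the calls of SNAI2 and VIM being lost. LUM, lumican of the fibroblast list, was lower by 0.39 and lost its call with Go 2 alone. Of 29 tested glycolysis and hypoxia genes 6 were lower and 0 higher, with a median of -0.13. EGLN3, a prolyl hydroxylase of HIF, was at 7.86 and 8.01 with Go, 8.996, 8.93 and 8.89 with enzastaurin and 7.78, 8.28 and 7.67 in the controls (-1.01, SE 0.16, adjusted p 0.00999). BNIP3 (-0.63), SLC2A1, the glucose transporter GLUT1 (-0.55), PFKFB4 (-0.48), HK1 (-0.42) and EGLN1 (-0.33) were the others. EGLN1 lost its call with Go 2 alone. Without enzastaurin 1 or 2 the count was 1, and without Go 2 it was 3.

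Immune genes differed in opposite directions. Of 31 tested interferon response genes 4 were higher and 0 lower, and the list's median was 0.25. OASL was at 11.55 and 11.59 against 10.72, 10.46 and 10.66 (0.96, SE 0.13, adjusted p 0.00401), IFIT2 differed by 0.85 and SAMD9 by 0.78, and MX2 (0.80) lost its call with Go 2 alone. Of 11 tested genes of MHC class II presentation 4 were lower: CIITA, the activator of the class II genes, at 9.40 and 9.51 against 9.99, 9.84 and 9.96 (-0.48, SE 0.09, adjusted p 0.0195), HLA-DRA (-0.65), HLA-DQB1 (-0.73) and HLA-DPB1 (-0.53), which are similar to other class II genes. None of these 4 was called with Go 2 alone, and none without enzastaurin 1 or 3, although the median was -0.33 on Go 2 alone against -0.37. Among 31 tested chemokines, cytokines and prostanoid enzymes 5 were higher and 2 lower. CCL28, an epithelial chemokine, was higher by 0.77 and kept its call, CSF2 was lower by 0.54 and lost it without enzastaurin 1 or 2, and IL6, at 11.11 and 10.38 with Go, lost it with any 1 control or enzastaurin array left out and with Go 2 alone.

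Called members of the ERK feedback, MYC and YAP lists were higher with Go. Of 20 tested ERK feedback genes 5 were called higher and 0 lower. Yet 10 members lay above 0 and 10 below, and the list's median was 0.02 against 0.03 over all genes. DUSP6, the ERK phosphatase, was at 9.63 and 9.37 with Go, 8.64, 8.66 and 8.81 with enzastaurin and 9.67, 9.46 and 9.43 in the controls (0.80, SE 0.11, adjusted p 0.00561). DUSP2 (0.60) and CCND1, cyclin D1 (0.61), kept their calls, while DUSP4 (0.60) and ETV4 (0.38) lost them with Go 2 alone. Of 13 tested MYC network genes MYC itself, at 12.51 and 12.51 against 11.69, 11.55 and 11.58 (0.90, SE 0.10, adjusted p 0.00173), and the repressor MNT (0.62) were higher, the latter call being lost with Go 2 alone and without enzastaurin 1 or 2. Of 23 tested YAP and TAZ genes 5 were higher, led by ARHGEF17 (0.86), AMOTL2 (0.76) and the kinase LATS2 (0.72). Of 22 tested G1 cyclins, CDKs and inhibitors 2 were called higher (9.09%) and 1 lower (4.55%), against 5.11% and 3.36% over all genes. In that list 11 members lay above 0 and 11 below, and the median was 0.04. CCND2, cyclin D2, was higher by 1.05. CDKN1A, the inhibitor p21, was lower, at 9.13 and 9.01 against 9.77, 9.66 and 9.71 (-0.64, SE 0.09, adjusted p 0.00571). EGFR was at 9.97 and 9.29 with Go and did not pass (0.27, 95% interval -0.12 to 0.65), nor did MKI67 (-0.10, 95% interval -0.31 to 0.11). Of 23 tested AKT, GSK3 and mTOR genes SGK1 (-0.80), RPS6KA1 (-0.43), and PIK3R1 (-0.39) were among 4 lower and EIF4EBP1 (0.41) was higher. The call of EIF4EBP1 was lost under 15 of 20 alternatives, Go 2 alone among them, and without enzastaurin 1, enzastaurin 2 or Go 2 none of the lower calls was left.

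Few genes of the PKC family itself were called. Of 24 tested genes of protein kinases C and D, diacylglycerol kinases and phospholipases C, PLCE1 was higher by 0.36 (adjusted p 0.0334) and 0 were lower, and the list's median was 0.01. PRKCB, the isoform for which enzastaurin is known, was not above background on any of the 5 arrays, nor were PRKCQ and PRKD1. PRKCA was at 6.73 and 6.78 with Go and 7.05, 7.01 and 7.14 with enzastaurin, a difference of -0.31 that did not pass (95% interval -0.50 to -0.12, adjusted p 0.0572). PRKCD differed by 0.19 (95% interval -0.03 to 0.42, adjusted p 0.242). A p that misses the threshold does not show that the compounds acted alike on these genes.

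Other gene groups are set here beside the shares over all genes, 5.11% called higher and 3.36% lower. Of 33 tested mitosis genes 2 were higher and 0 lower, of 35 DNA replication genes 1 and 0, and of 32 ribosomal protein genes 0 and 1. Proteasome subunits had 2 of 25 members lower (8%) and oxidative phosphorylation subunits 3 of 29 higher (10.3%). Unfolded protein response genes had 2 higher (10.5%) and 1 lower (5.26%) of 19. Hemidesmosome and basement membrane genes had 2 of 18 members lower (11.1%) and a median of -0.26, which was -0.21 on Go 2 alone. Metallothioneins, whose genes are near-identical copies, had 2 of 10 members higher (20%), a count that was 0 with arrays scaled to their medians. Their median was 0.17 on Go 1 alone and 0.53 on Go 2 alone.

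**Figure D4:**
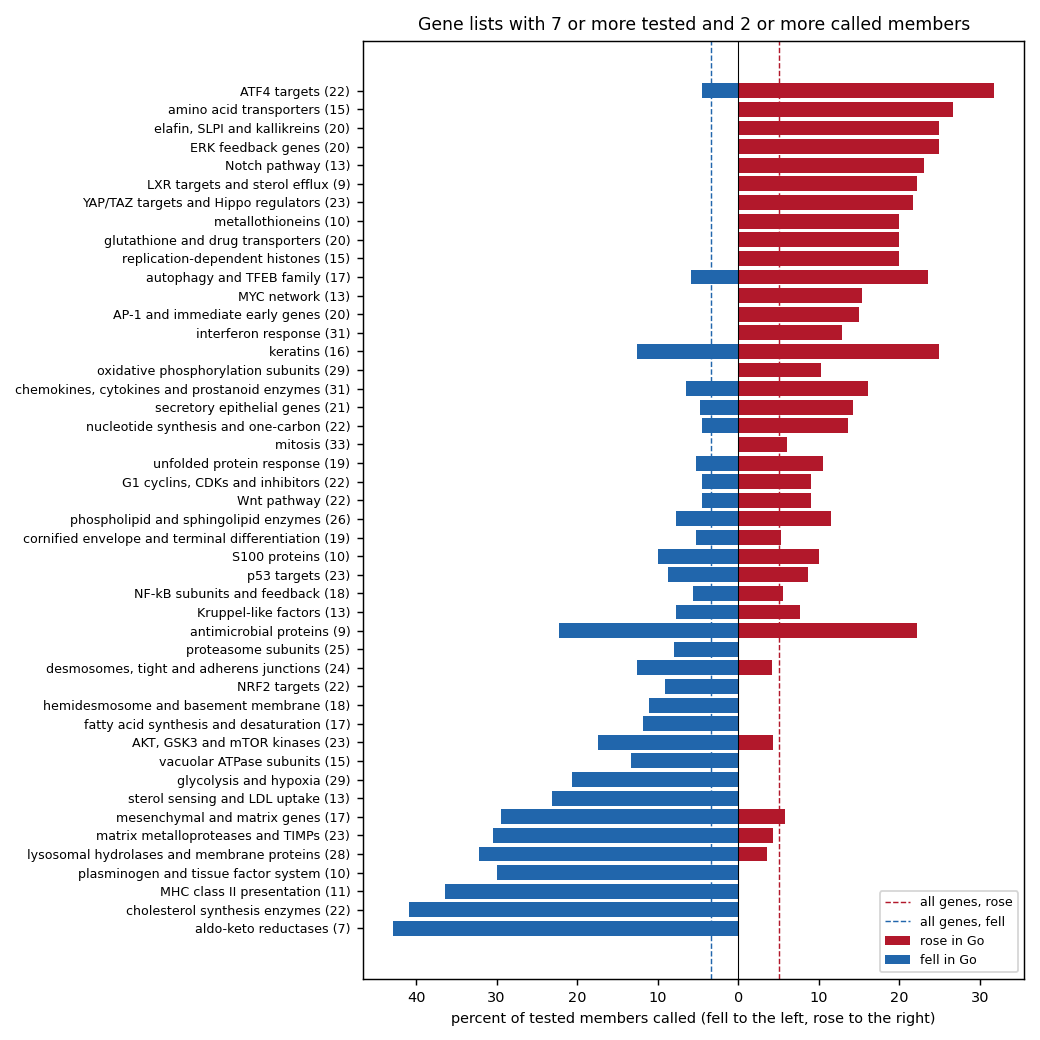
Share of tested members called lower (left, blue) and higher (right, red) with Go, in percent, for each list with at least 7 tested members and at least 2 called. Dashed lines give the shares over all genes, 3.36% lower and 5.11% higher. Aldo-keto reductases (42.9% lower), cholesterol enzymes (40.9%), MHC class II (36.4%) and lysosomal genes (32.1%) reach farthest left and ATF4 targets (31.8% higher) farthest right.

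The 2 Go arrays disagreed in a set of genes. In 215 genes they lay at least 2-fold apart, 87 with Go 1 higher and 128 with Go 2 higher. Of these 70 had a probe in the dim corner, and in 110 of the other 145 Go 1 was nearer the control mean and Go 2 nearer the enzastaurin mean. The largest was GNG8, a G protein gamma subunit. GNG8 read 11.52 and 6.65 on Go 1 and Go 2, 6.40, 6.42 and 6.27 on the enzastaurin arrays and 13.70, 13.86 and 12.82 on the controls. Go 1 lay below every control and far above the enzastaurin arrays, Go 2 lay just above the enzastaurin arrays, and the mean difference of 2.72 was not called (adjusted p 0.162). With enzastaurin NEUROG1 was at 8.44, 8.69 and 8.23, with Go at 13.24 and 8.53 and in the controls at 10.36, 11.84 and 12.71. NEUROG1, a proneural factor, had Go 1 above every control and Go 2 within the enzastaurin range (2.44, adjusted p 0.224). H4C2, a replication-dependent histone gene, was the largest in the other direction outside the corner, at 8.31 and 12.30 with Go against 11.86, 12.26 and 11.76 with enzastaurin and 5.96, 6.10 and 6.21 in the controls. LAMP2, a lysosome membrane protein, was high on Go 2 only, at 9.95 and 12.21 with Go against 10.20, 10.18 and 10.36 with enzastaurin and 10.28, 10.09 and 9.89 in the controls, and was called higher with Go 2 alone (1.97, adjusted p 0.00268). Go 1 shares its position set with the controls and Go 2 with enzastaurin. In these genes a difference between enzastaurin and the controls therefore cannot be told apart from one between the sets. Both Go arrays carry the same treatment label, and what set them apart was not tested. Of the 215 genes 3 were called, LYPD1 and P4HA2 among them.

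**Figure D5:**
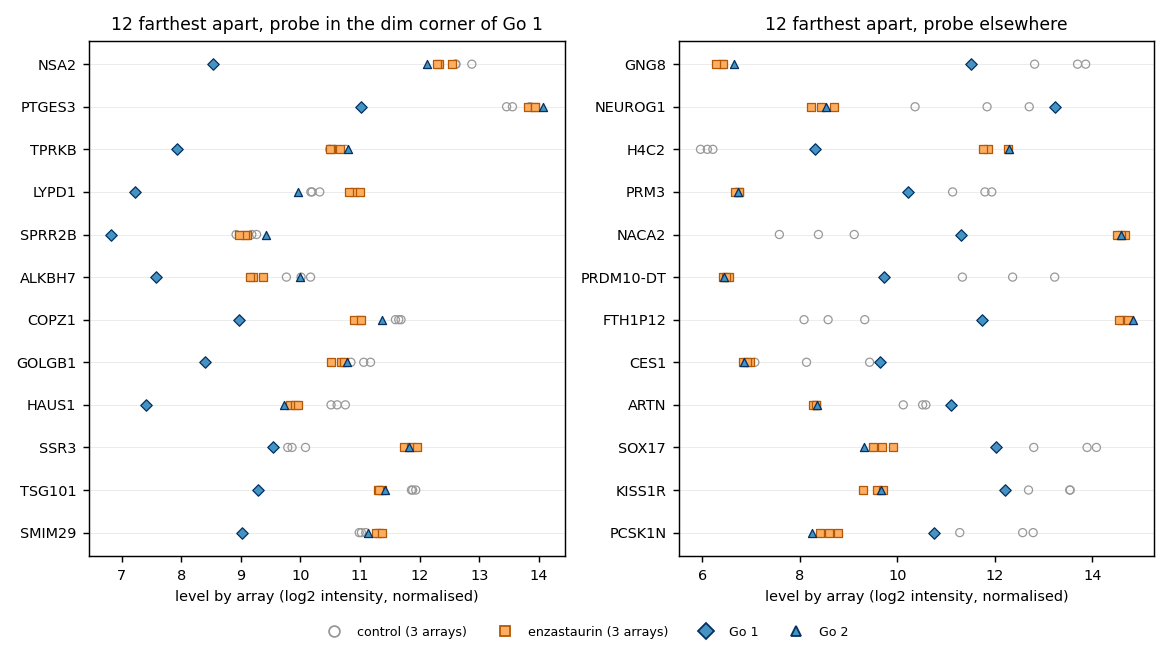
Levels (log2 intensity, x axis) on all 8 arrays of the 12 genes with the Go arrays farthest apart inside the dim corner of Go 1 and the 12 farthest apart outside it. Inside the corner Go 1 lies below all the other arrays, as in NSA2; outside it Go 2 lies within or near the range of the enzastaurin arrays and Go 1 apart from them, in most genes between them and the controls, as in GNG8.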

How the data were processed

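Total RNA of 8 CAL-27 samples was measured on 1-colour Agilent arrays read as GenePix tables. Per the file headers, the deposited tables give foreground and background intensity of 1 channel, which they name as red, the percent of saturated pixels, a signal-to-noise score and other values such as spot positions in µm. The labels name the dye Cy3. A value table deposited by the authors holds background-subtracted intensity, and its further processing is not given in the sources used here. It was used as an alternative, with values under 16 set to 16.

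In the deposited tables the probe names run opposite to the spots. Turned end for end, the spots' rank correlation with the authors' value table rose from between 0.0077 and 0.0131 to between 0.989 and 0.993, and the tables were used so. Background was corrected by normexp (offset 50), control spots were left out, and log2 values were quantile normalised. A probe counted as above background where its signal-to-noise ratio exceeded 3, and was tested where 2 arrays passed. The brightest probe stood for each gene. Of 41000 probes 26808 were named through RefSeq, and 12649 genes were tested.

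The test was limma (version 3.58.1, R 4.3.3) over all 3 groups, with 5 residual degrees of freedom and Benjamini-Hochberg adjustment. The test was first tested on simulated data with known changes. The number of arrays limits the precision. The alternatives were other scalings, background settings, filters, probe summaries, array weights, blocks and leaving out each array. The named genes are the 15 largest rises and falls called in both fits, up to 4 called members of each of 64 gene lists, and some genes fixed by name. Further members were named after their values were seen. The comparison, its members and the lists were chosen with earlier results of these data known. Some members of these lists are not reported here by name.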

Additional observations from a re-analysis of the deposited data

How the results depend on the processing

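Against 1071 genes called, array weights gave 574, and leaving out 1 array gave 250 to 1684, the lowest without enzastaurin 2 and the highest without Go 2. Scaling to the 75th percentile gave 1043 calls, 66.5% of them higher with Go, and scaling to the median 812, 32.0% higher, where quantile normalisation gave 60.3%. The authors' values gave 870 calls and the position set as a block 1006, 51.5% higher. For calls of at least 2-fold, 53 in the 8-array fit, the authors' values gave 143, and leaving out 1 array gave 46 to 254. Against 1006 calls with the position set as a block, the 5 arrays of the compounds alone gave 3229, and leaving out 1 array gave 186 to 2435. Apart from the replicate block, given below, the other alternatives for these counts stayed within 1.5 times. The fit without Go 2 could not be made with that block, and array weights and the replicate block were not run with it. Leaving out the dim corner of Go 1, chosen after the data were seen, gave 1142 calls.

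The replicate numbers are a label only. With the replicate number as a block 548 genes were called, 527 of them among the 1071. Same-numbered arrays deviated from their group means with correlations of -0.144 to 0.150, against -0.172 to 0.195 for differently numbered arrays. With 2 Go arrays, an array's correlations with Go 1 and Go 2 are equal and opposite by construction. The ranges overlap and do not settle whether the arrays were paired.

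Of 218 named genes 1 reversed: COX5A, a subunit of cytochrome oxidase, differed by 0.37, and by -0.0285 with the mean of all its probes (adjusted p 0.942). Of 3880 values of the 194 called named genes under the alternatives, 793 no longer passed. Both counts include the fit resting on Go 2 alone under both of its names. The cause of these differences was not tested. Only Go 2 shares a position set with enzastaurin, and 2 arrays of Go limit every result.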

Other observations

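Probes without a gene name were tested by limma in a fit over all 24771 probes that passed the background filter. Benjamini-Hochberg adjustment covered named and unnamed probes together, and 1108 of the 24771 were called. Of the 6513 unnamed ones 162 were called, 70 higher and 92 lower with Go. Genes measured on the arrays of 1 compound only numbered 13 with Go and 16 with enzastaurin among those called.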
